A study of Mus musculus with 6 samples.

Results

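The genes described here are the translation initiation and elongation factors of RAW264.7 cells, a mouse macrophage-like line of tumour origin, taken as every row whose symbol starts with Eif or Eef and a digit. The rule took 87 of the 22614 rows of the table, all 87 of them found in the GENCODE M21 annotation (GRCm38), and it includes the eIF2 kinases, which carry the Eif2ak symbols. RNA was sequenced from 3 libraries of cells given nanoparticles, CM-PEG-PLGA@DOX/R848, in an amount that carried 2 µg/mL DOX, and from 3 libraries of cells given PBS, each for 24 h. DOX stands for doxorubicin, a DNA-damaging drug, and R848 for resiquimod, an agonist of Toll-like receptors. PEG and PLGA are polymers, and the labels do not say what CM is. The nanoparticle was set against PBS alone, so the drug, the agonist and the carrier cannot be told apart. Whether replicates were separate cultures is not stated in the labels, so the p-values rest on a spread between libraries that may be technical.

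Initiation factors bring the small ribosomal subunit, the initiator tRNA and an mRNA together at a start codon, and elongation factors then deliver aminoacyl-tRNAs and move the ribosome along. The eIF4F complex binds the cap of the mRNA, eIF3 holds the small subunit, and eIF2 carries the initiator tRNA. Control in macrophages and other cells falls mainly on 2 steps. eIF2 kinases phosphorylate eIF2 and so block its exchange factor eIF2B, and eIF4E-binding proteins take the cap-binding factor eIF4E out of eIF4F, a step held off by mTORC1. Both act on proteins, which mRNA levels do not measure.

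The libraries listed 15723 to 15989 genes above 0 after nanoparticle treatment and 12678 to 12872 after PBS. Values are FPKM, fragments scaled to transcript length and library size, whose sums were 448812 to 467016 in nanoparticle libraries and 455095 to 466386 in PBS libraries. The depth is not given, and the step between the lowest values implies, as an inference, 17000000 to 18100000 fragments for nanoparticle libraries and 17800000 to 21800000 for PBS libraries. Of 9 macrophage markers, 8 averaged at least 1 FPKM, the exception being Mertk. Their summed level was 1354 to 1418 FPKM in nanoparticle libraries and 3276 to 3402 FPKM in PBS libraries. Markers of fibroblasts, T cells, B cells and epithelium, summed for each type apart, reached at most 0.697 FPKM in any library. Cd3g, Cd8a, Krt18 and Krt19 were at 0 in all 6. The B cell sum was 0.613 to 0.697 FPKM in nanoparticle libraries and 0.08 to 0.133 FPKM in PBS libraries. T cell and epithelial sums were also higher in nanoparticle libraries, and fibroblast sums overlapped. Of the 8 macrophage markers, 6 were lower in nanoparticle libraries and 2 higher. Lyz2, Cd14, Csf1r and Cd68 carry the macrophage sum, while Adgre1 (log2 fold change 2.28, limma adjusted p = 1.3e-08) and Fcgr1 (0.17, adjusted p = 0.023) were higher. The part of these marker differences in the values below was not tested.

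The members together made up 2.67%, 2.68% and 2.74% of all FPKM in the nanoparticle libraries, against 3.04%, 3.00% and 3.01% in the PBS libraries. The groups did not overlap in this share. Eef1a1 alone, which encodes the factor that delivers aminoacyl-tRNA, accounted for 33.4% to 36.9% of it in nanoparticle libraries and 34.0% to 34.5% in PBS libraries, and without Eef1a1 the share was 1.78%, 1.73% and 1.73% in nanoparticle libraries, against 2.00%, 1.98% and 1.97% in PBS libraries. In these bulk samples, fewer cells that express a gene and less RNA of it per cell cannot be told apart. The 5 members most abundant in nanoparticle libraries (Eef1a1, Eif5a, Eef2, Eif4a1 and Eif1) held 57.3% to 58.1% of the members' FPKM there, and the 5 most abundant in PBS libraries, with Eef1g in place of Eif1, held 62.2% to 62.9% there.

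Of the 87 members, 63 averaged at least 1 FPKM over the 6 libraries and were tested with limma on log2(FPKM + 1), with p-values adjusted over all 10229 genes tested and a threshold of 0.05. Among them 21 were higher and 32 lower after nanoparticle treatment, and 10 did not pass. The 32 include Eef2k, which passed the filter only through the PBS libraries. Of all genes tested, 77.2% passed, 42.7% as higher and 34.5% as lower, while the members gave 84.1%, 33.3% and 50.8%. The share of members called either way was thus close to that of all genes. Whether their split by direction differs from that of all genes was not tested, nor was that of any role or list below. The median log2 fold change of the tested members was -0.15, against 0.08 over all genes tested. Changes were modest: 45 of the 63 lay within 0.5 of 0 on the log2 scale, as did 5508 of all 10229 genes tested. The members ran between -1.26 and 0.95. All genes ran between -5.08 and 6.48, but a range tends to widen with the number of genes. In 55 of the 63 the nanoparticle and PBS libraries did not overlap, while 78.8% of all genes tested did not overlap.

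**Figure D1:**
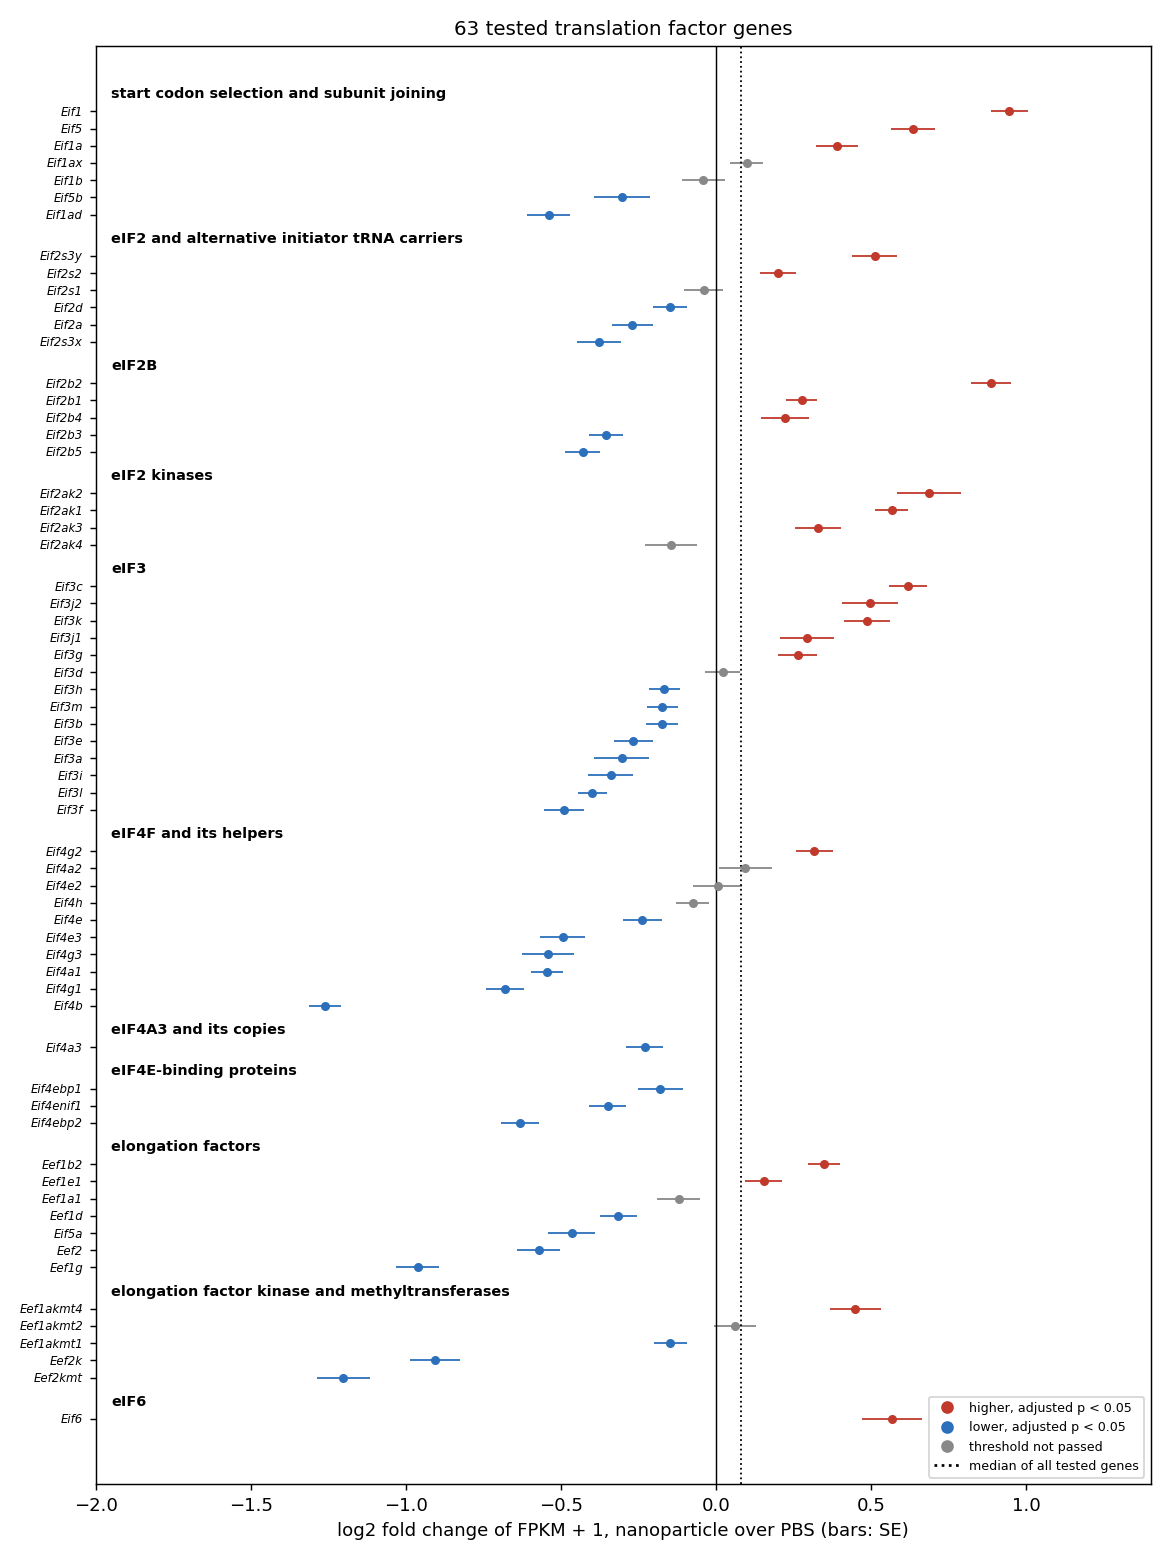
Log2 fold change of FPKM + 1 (horizontal axis, nanoparticle over PBS, n = 3 libraries each) for the 63 tested members, grouped by role. Points are estimates, bars are SE, colour gives the call at an adjusted p of 0.05, and the dotted line is the median of all tested genes at 0.08; the members run between -1.26 for Eif4b and 0.95 for Eif1.

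Among the genes that select the start codon, Eif1 and Eif5 rose most. Eif1 encodes the small factor that keeps the scanning ribosome open until it meets a good start codon, and lies at chr11:100319885-100322096 (GRCm38). It stood at 433, 433 and 397 FPKM in nanoparticle libraries, against 213, 229.6 and 212 FPKM in PBS libraries. All nanoparticle libraries were above all PBS libraries, with means of 421 ± 20.9 FPKM in nanoparticle libraries and 218 ± 10.03 FPKM in PBS libraries (SD, n = 3 each), a 1.93-fold difference (log2 fold change 0.95 ± 0.06 SE, adjusted p = 3.3e-07). Eif5, at chr12:111538016-111546752 (GRCm38), encodes the factor that triggers GTP hydrolysis on eIF2 once the start codon is found. It had 118, 116 and 136 FPKM in nanoparticle libraries, against 75.99, 77.7 and 83.4 FPKM in PBS libraries, again without overlap (log2 fold change 0.63 ± 0.07 SE, adjusted p = 2.0e-05).

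Other genes of start codon selection were split. Eif1a, one of the genes for the scanning factor eIF1A, rose to a mean of 61.8 ± 4.21 FPKM in nanoparticle libraries, against 46.9 ± 2.56 FPKM in PBS libraries (log2 fold change 0.39 ± 0.07 SE, adjusted p = 4.3e-04). Its X-linked partner Eif1ax had means of 27.5 ± 0.747 FPKM in nanoparticle libraries and 25.6 ± 0.205 FPKM in PBS libraries and did not pass (log2 fold change 0.10 ± 0.05 SE, adjusted p = 0.12), and neither did Eif1b, a close relative of Eif1 with 81.1% identity of coding sequence, at means of 28.7 ± 2.38 FPKM in nanoparticle libraries and 29.6 ± 1.02 FPKM in PBS libraries (log2 fold change -0.04 ± 0.07 SE, adjusted p = 0.6). Eif5b, whose product joins the large subunit, fell to 14.2 ± 1.77 FPKM in nanoparticle libraries, against 17.8 ± 1.11 FPKM in PBS libraries (log2 fold change -0.30 ± 0.09 SE, adjusted p = 0.011). Eif1ad, an eIF1A-like gene with a role in ribosome maturation, fell as well (log2 fold change -0.54 ± 0.07 SE, adjusted p = 5.1e-05), but shares 428 exon bases with Banf1 on the opposite strand, itself at a log2 fold change of -0.56, and no source used here says whether strand was used in counting. In all, 3 of these 7 genes rose, 2 fell and 2 did not pass.

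The subunits of eIF2 did not move together. Eif2s1, which encodes the alpha subunit that the eIF2 kinases phosphorylate, had 86.5, 90.03 and 94.3 FPKM in nanoparticle libraries, against 86.4, 97.1 and 95.2 FPKM in PBS libraries, with overlapping groups (log2 fold change -0.04 ± 0.06 SE, adjusted p = 0.56). Eif2s2, the beta subunit gene, had means of 102 ± 5.95 FPKM in nanoparticle libraries and 88.6 ± 2.39 FPKM in PBS libraries and passed as higher (log2 fold change 0.20 ± 0.06 SE, adjusted p = 0.01), a call lost under both upper quartile and median-ratio scaling. The gamma subunit comes from an X-linked and a Y-linked gene with 86.3% identical coding sequence, and these moved in opposite directions. Eif2s3y rose to 42.1 ± 3.32 FPKM in nanoparticle libraries, against 29.3 ± 1.99 FPKM in PBS libraries (log2 fold change 0.51 ± 0.07 SE, adjusted p = 1.3e-04), and Eif2s3x fell to 49.5 ± 4.56 FPKM in nanoparticle libraries, against 64.5 ± 2.65 FPKM in PBS libraries (log2 fold change -0.38 ± 0.07 SE, adjusted p = 7.6e-04). The ratio of Eif2s3y to Eif2s3x was 0.873, 0.843 and 0.840 in the nanoparticle libraries and 0.424, 0.472 and 0.465 in the PBS libraries. Eif2a and Eif2d, which encode alternative carriers of initiator tRNA, both fell, by 0.27 and 0.15 on the log2 scale (adjusted p = 0.0039 and 0.029, limma). Their limits are an opposite-strand overlap of 72 exon bases with Serp1 for Eif2a, and for Eif2d a similar overlap of 78 bases with Rassf5 and a call lost in 5 of the 6 fits that left out a library, with log2 fold changes there of -0.16 to -0.13.

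All 5 eIF2B subunit genes passed, 3 higher and 2 lower, where 77.2% of all genes tested passed. eIF2B recharges eIF2 with GTP, and its epsilon subunit, from Eif2b5, holds the catalytic site. Eif2b2, the beta subunit gene at chr12:85219481-85226628 (GRCm38), had 86.7, 78.3 and 75.8 FPKM in nanoparticle libraries, against 40.9, 44.3 and 43.5 FPKM in PBS libraries. Every nanoparticle library stood well above every PBS library, at means of 80.3 ± 5.699 FPKM in nanoparticle libraries and 42.9 ± 1.74 FPKM in PBS libraries and a 1.87-fold difference (log2 fold change 0.89 ± 0.06 SE, adjusted p = 8.8e-07). Eif2b5 went the other way, at 40.6, 40.0 and 36.6 FPKM in nanoparticle libraries, against 53.1, 52.8 and 52.96 FPKM in PBS libraries (log2 fold change -0.43 ± 0.06 SE, adjusted p = 6.6e-05), and so did Eif2b3, the gamma subunit gene (log2 fold change -0.36 ± 0.06 SE, adjusted p = 2.1e-04). The ratio of Eif2b2 to Eif2b5 was therefore 2.14, 1.96 and 2.07 in nanoparticle libraries, against 0.771, 0.838 and 0.821 in PBS libraries. Eif2b1, the alpha subunit gene, rose (log2 fold change 0.28 ± 0.05 SE, adjusted p = 6.4e-04). Eif2b4, the delta subunit gene, passed narrowly as higher (log2 fold change 0.22 ± 0.08 SE, adjusted p = 0.024), a call lost under both scalings, without the filter on low values and in 4 of the 6 fits without a library (log2 fold changes of 0.16 to 0.23), and it shares 204 exon bases with Snx17 on the opposite strand.

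Of the 4 eIF2 kinases, 3 rose. Eif2ak2 encodes PKR, which double-stranded RNA activates and interferon induces, and it is found at chr17:78852564-78882573 (GRCm38). It had 30.3, 29.9 and 39.3 FPKM in nanoparticle libraries, against 19.5, 19.03 and 21.7 FPKM in PBS libraries; nanoparticle replicate 3 was the highest and the groups did not overlap (log2 fold change 0.69 ± 0.10 SE, adjusted p = 1.7e-04), a 1.65-fold difference in mean. Eif2ak1 encodes HRI, the kinase known for sensing heme and mitochondrial stress. It had 28.6, 29.1 and 28.9 FPKM in nanoparticle libraries, against 18.98, 19.5 and 19.1 FPKM in PBS libraries, tight within each group and 1.505-fold higher in mean (log2 fold change 0.57 ± 0.05 SE, adjusted p = 5.8e-06). Eif2ak1 shares 487 exon bases with Aimp2 on the opposite strand, which itself did not pass (log2 fold change 0.01, adjusted p = 0.91).

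Eif2ak3, the gene of the endoplasmic reticulum kinase PERK, rose less, with 6.495, 7.12 and 6.83 FPKM in nanoparticle libraries, against 5.31, 4.86 and 5.51 FPKM in PBS libraries (log2 fold change 0.33 ± 0.08 SE, adjusted p = 0.0027). Eif2ak4, the gene of the amino acid sensor GCN2, had 6.63, 6.0 and 7.23 FPKM in nanoparticle libraries, against 7.63, 6.89 and 7.75 FPKM in PBS libraries, with overlapping groups and no call (log2 fold change -0.15 ± 0.08 SE, adjusted p = 0.14). With the replicate number as a block its fall of 0.15 passed (adjusted p = 0.048), and it also passed under upper quartile scaling (-0.24), under median-ratio scaling (-0.26) and without nanoparticle replicate 3 (-0.20).

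The start of Eif2ak2 is shown because its RefSeq promoter window holds a motif like the interferon-stimulated response element (a pair of GAAA with 2 bases between them, on either strand), which also stands in 3.94% of the 8250 tested genes with a window and in 4 of the 58 members with one. The stretch below is chr17:78882543-78882584 on the minus strand of GRCm38.p6, written 5′ to 3′, with the motif in capitals; the motif begins at base +19, counting the first transcribed base as +1.
Eif2ak2: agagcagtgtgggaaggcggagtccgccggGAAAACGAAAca
Of the other 3 members with this motif, Eif2s3x and Eif3a were lower and Eif2s1 did not pass. A match of letters is a description and shows no binding.

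**Figure D2:**
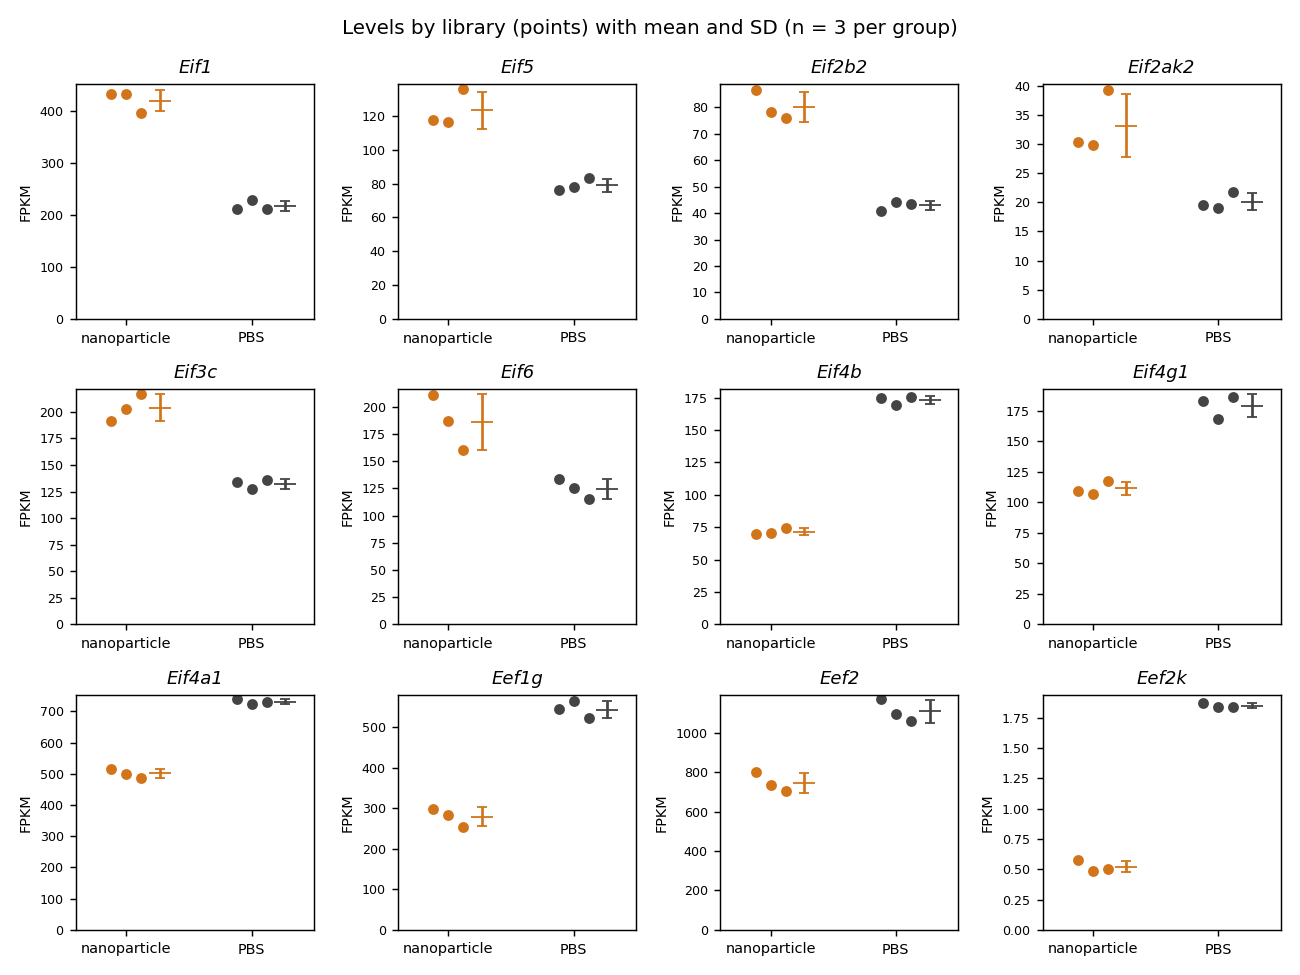
FPKM of 12 members in each nanoparticle and PBS library (points; vertical axes start at 0), with the group mean and SD beside them (n = 3 each). In each panel the groups do not overlap: Eif1, Eif5, Eif2b2, Eif2ak2, Eif3c and Eif6 are higher in the nanoparticle libraries, and Eif4b, Eif4g1, Eif4a1, Eef1g, Eef2 and Eef2k are lower. The 12 shown are all members that passed the threshold, and 78.8% of all genes tested did not overlap either. Eef2k passed the filter only through the PBS libraries, so its test is no support for a difference.

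The 14 genes of eIF3, the large scaffold on the small ribosomal subunit, split into 5 higher, 8 lower and 1 not called. These are 35.7% higher and 57.1% lower, against 42.7% and 34.5% of all genes tested. Eif3c, a core subunit gene, rose most, with 192, 203 and 217 FPKM in nanoparticle libraries, against 134, 127 and 136 FPKM in PBS libraries, a 1.54-fold difference (log2 fold change 0.62 ± 0.06 SE, adjusted p = 7.0e-06). Eif3k, which encodes a peripheral subunit, had 301, 297 and 250.2 FPKM in nanoparticle libraries, against 199, 206 and 197 FPKM in PBS libraries (log2 fold change 0.49 ± 0.07 SE, adjusted p = 1.8e-04). Eif3g, whose product binds RNA, rose to 309 ± 21.5 FPKM in nanoparticle libraries, against 257 ± 9.04 FPKM in PBS libraries (log2 fold change 0.26 ± 0.06 SE, adjusted p = 0.0036), a call lost under upper quartile and median-ratio scaling. Among these 3 genes the groups never overlapped, as in 78.8% of all genes tested.

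The loosely bound eIF3j subunit comes from Eif3j1 and Eif3j2, whose coding sequences are 99.2% identical, so the split of reads between them is uncertain. Both passed as higher (log2 fold change 0.29 ± 0.09 SE, adjusted p = 0.012 for Eif3j1, and log2 fold change 0.50 ± 0.09 SE, adjusted p = 6.5e-04 for Eif3j2), the first not under either scaling nor without PBS replicate 1 (log2 fold change 0.24). Their summed level, which can still move with the split where the genes differ in length, was 47.7, 53.5 and 58.9 FPKM in nanoparticle libraries and 36.8, 40.1 and 41.1 FPKM in PBS libraries. The groups stayed apart in this sum.

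Eif3f fell most within eIF3, at 75.2, 73.9 and 65.8 FPKM in nanoparticle libraries, against 102, 104 and 96.2 FPKM in PBS libraries (log2 fold change -0.49 ± 0.06 SE, adjusted p = 6.7e-05). Eif3l, which encodes the partner of eIF3k, fell to 109 ± 1.46 FPKM in nanoparticle libraries, against 144 ± 2.103 FPKM in PBS libraries (log2 fold change -0.40 ± 0.05 SE, adjusted p = 3.1e-05), so the ratio of Eif3k to Eif3l was 2.80, 2.70 and 2.27 in nanoparticle libraries and 1.401, 1.41 and 1.36 in PBS libraries. Eif3a, the gene of the largest core subunit, had 64.9, 65.9 and 80.7 FPKM in nanoparticle libraries, against 85.8, 81.5 and 93.6 FPKM in PBS libraries (log2 fold change -0.30 ± 0.09 SE, adjusted p = 0.0099). The ratio of Eif3c to Eif3a, the genes of 2 core subunits, was 2.95, 3.08 and 2.69 in nanoparticle libraries and 1.56, 1.56 and 1.45 in PBS libraries. Falls by 0.34 to 0.17 on the log2 scale were called for Eif3i, Eif3e, Eif3b, Eif3m and Eif3h, of which Eif3b lost its call without PBS replicate 1 (log2 fold change -0.14). Eif3d, whose product can bind the cap of some mRNAs, stood at 169 ± 9.25 FPKM in nanoparticle libraries and 167 ± 3.395 FPKM in PBS libraries and did not pass (log2 fold change 0.02 ± 0.06 SE, adjusted p = 0.74); its sign turned under both scalings and without nanoparticle replicate 1.

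**Figure D3:**
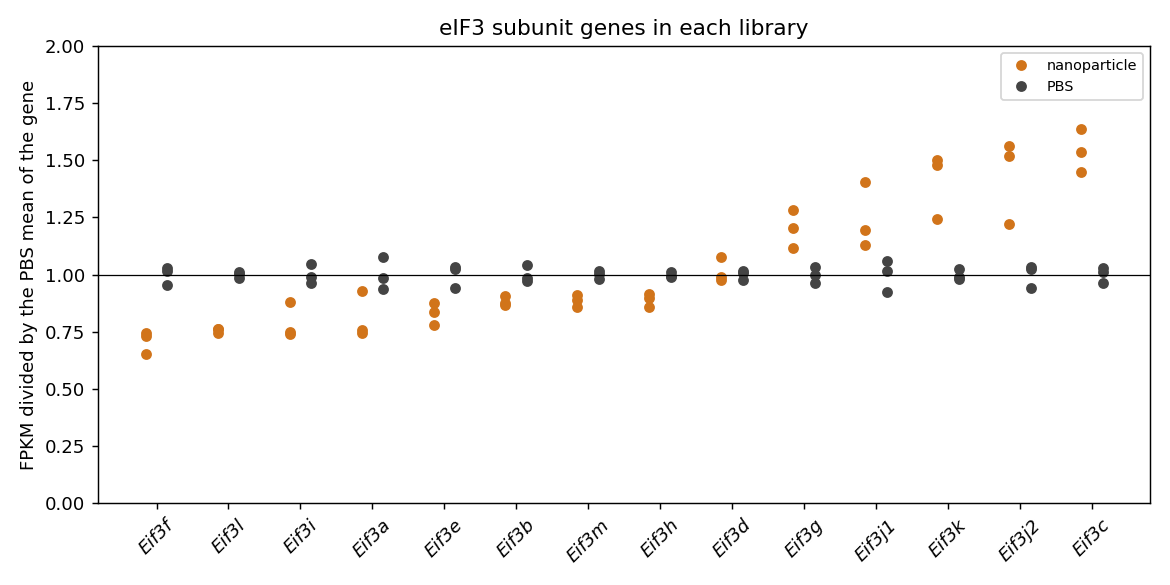
FPKM of each eIF3 subunit gene in each library, divided by that gene's PBS mean (vertical axis), for nanoparticle and PBS libraries (3 points each), ordered by fold. The 8 genes at the left, Eif3f to Eif3h, lie below 1 in the nanoparticle libraries and the 5 at the right, Eif3g to Eif3c, above it, with Eif3d between them.

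The cap-binding machinery was mostly lower. Of the 10 tested genes of eIF4F and its helpers, 6 fell, 1 rose and 3 did not pass, with a median log2 fold change of -0.37. Eif4b, which encodes the helper of the eIF4A helicase, lies at chr15:102073773-102097173 (GRCm38) and had the lowest log2 fold change of all tested members. It had 70.01, 70.4 and 74.4 FPKM in nanoparticle libraries, against 175, 169 and 175 FPKM in PBS libraries, 2.42-fold lower in mean and far apart between the groups (log2 fold change -1.26 ± 0.05 SE, adjusted p = 1.5e-08). The scaffold gene Eif4g1 had 109, 107 and 118 FPKM in nanoparticle libraries, against 183, 168 and 186 FPKM in PBS libraries (log2 fold change -0.68 ± 0.06 SE, adjusted p = 4.0e-06), and its relative Eif4g3 also fell (log2 fold change -0.54 ± 0.08 SE, adjusted p = 2.2e-04). The helicase gene Eif4a1 had 516, 499 and 488 FPKM in nanoparticle libraries, against 741, 724 and 729 FPKM in PBS libraries (log2 fold change -0.55 ± 0.05 SE, adjusted p = 6.5e-06).

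Related genes of the same families did not all follow. Eif4g2 encodes a scaffold that lacks the eIF4E-binding site and serves cap-independent initiation. It rose, with 216, 207 and 233 FPKM in nanoparticle libraries, against 169, 175 and 181 FPKM in PBS libraries (log2 fold change 0.32 ± 0.06 SE, adjusted p = 7.9e-04). The ratio of Eif4g2 to Eif4g1 was 1.99, 1.93 and 1.98 in nanoparticle libraries, against 0.925, 1.04 and 0.975 in PBS libraries, groups that lie far apart. The second helicase gene, Eif4a2, with a coding sequence 77.8% identical to that of Eif4a1, had 55.9, 60.9 and 66.9 FPKM in nanoparticle libraries, against 51.1, 59.5 and 61.4 FPKM in PBS libraries and did not pass (log2 fold change 0.09 ± 0.09 SE, adjusted p = 0.34); it shares 194 exon bases with Rfc4 on the opposite strand. Eif4a1 to Eif4a2 stood at 9.23, 8.19 and 7.30 in nanoparticle libraries and 14.5, 12.2 and 11.9 in PBS libraries. Eif4h, a helper like Eif4b, did not pass (log2 fold change -0.08 ± 0.05 SE, adjusted p = 0.21) but passed as lower under upper quartile (-0.18) and median-ratio (-0.20) scaling.

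Of the 3 tested genes of cap-binding proteins, 2 fell and 1 did not pass. Eif4e had 48.8, 53.2 and 56.05 FPKM in nanoparticle libraries, against 61.6, 64.7 and 60.5 FPKM in PBS libraries (log2 fold change -0.24 ± 0.06 SE, adjusted p = 0.0062), and Eif4e3, a low-abundance relative, fell to 7.61 ± 0.587 FPKM in nanoparticle libraries, against 11.1 ± 0.186 FPKM in PBS libraries (log2 fold change -0.49 ± 0.07 SE, adjusted p = 1.4e-04). Eif4e2, which encodes a cap-binding repressor, had means of 86.1 ± 5.98 FPKM in nanoparticle libraries and 85.9 ± 7.98 FPKM in PBS libraries and did not pass (log2 fold change 0.01, adjusted p = 0.96). Eif4e1b, a germline relative, was listed at 0 in all 6 libraries. Eif4a3, the exon junction helicase gene, fell to 135 ± 7.03 FPKM in nanoparticle libraries, against 158 ± 7.02 FPKM in PBS libraries (log2 fold change -0.23 ± 0.06 SE, adjusted p = 0.0053).

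All 3 tested genes of proteins that bind eIF4E passed as lower, where 77.2% of all genes tested passed and 34.5% were lower. Eif4ebp2 had 14.97, 14.7 and 14.6 FPKM in nanoparticle libraries, against 24.4, 22.3 and 23.7 FPKM in PBS libraries, without overlap (log2 fold change -0.63 ± 0.06 SE, adjusted p = 6.2e-06). Eif4enif1, which encodes the transporter that carries eIF4E into the nucleus, fell to 22.2 ± 0.828 FPKM in nanoparticle libraries, against 28.5 ± 1.06 FPKM in PBS libraries (log2 fold change -0.35 ± 0.06 SE, adjusted p = 3.7e-04). Eif4ebp1, the best known mTORC1 target of the family, had 26.9, 24.9 and 22.3 FPKM in nanoparticle libraries, against 28.5, 28.7 and 27.02 FPKM in PBS libraries and passed only narrowly (log2 fold change -0.18 ± 0.07 SE, adjusted p = 0.045), with the call lost without the filter on low values, without the intensity trend and in 5 of the 6 fits without a library, where the log2 fold change was -0.21 to -0.11. The ratio of Eif4ebp2 to Eif4e was 0.307, 0.276 and 0.261 in nanoparticle libraries and 0.395, 0.344 and 0.392 in PBS libraries. That of Eif4ebp1 to Eif4e overlapped, at 0.552, 0.467 and 0.399 in nanoparticle libraries and 0.463, 0.443 and 0.447 in PBS libraries. The gene pairs for ratios were chosen after their values were seen, and the ratios are a description.

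**Figure D4:**
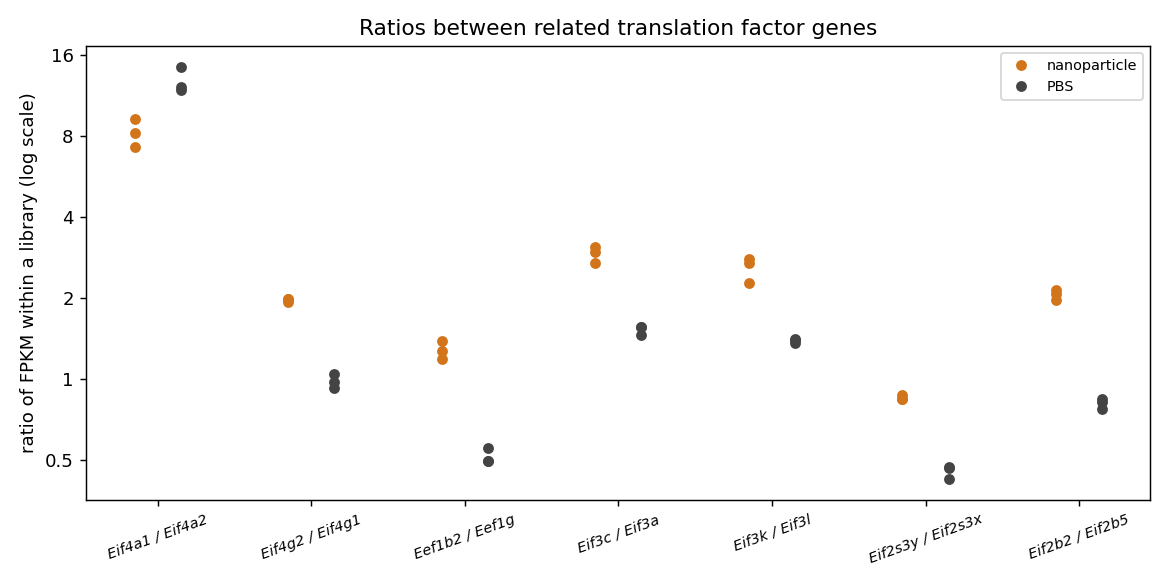
Ratio of FPKM between related members within each library (vertical log axis), for nanoparticle and PBS libraries (3 points each). Eif4a1 to Eif4a2 is lower in the nanoparticle libraries (7.30 to 9.23 against 11.9 to 14.5) and the other 6 ratios are higher there, with no overlap in any pair drawn. The pairs were chosen after their values were seen, so this lack of overlap is a description only. The ratio of Eif4ebp1 to Eif4e, which overlaps, is not drawn.

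The elongation factors include the most abundant members, and 4 of the 7 tested fell (57.1%, against 34.5% of all genes tested). Eef1a1, whose product delivers aminoacyl-tRNA, had 4159, 4389.8 and 4540.0 FPKM in nanoparticle libraries, against 4740.1, 4751 and 4723 FPKM in PBS libraries. Each nanoparticle library was below each PBS library, but the difference did not pass (log2 fold change -0.12 ± 0.07 SE, adjusted p = 0.14). It passed with the replicate number as a block (adjusted p = 0.029), under upper quartile (-0.23) and median-ratio (-0.25) scaling, and without nanoparticle replicate 3 (-0.15). Eef2, the gene of the translocase, fell, with 802, 733 and 704 FPKM in nanoparticle libraries, against 1171, 1097 and 1061 FPKM in PBS libraries (log2 fold change -0.57 ± 0.07 SE, adjusted p = 3.4e-05). Eif5a, which encodes the hypusine-bearing factor that helps ribosomes past stalling sequences, had 1223, 1130.0 and 1024 FPKM in nanoparticle libraries, against 1569.8, 1600.3 and 1482 FPKM in PBS libraries (log2 fold change -0.46 ± 0.08 SE, adjusted p = 2.9e-04).

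Genes of the exchange complex that recharges eEF1A moved apart. Eef1g, the gamma subunit gene at chr19:8967041-8978479 (GRCm38), had 299, 284 and 254 FPKM in nanoparticle libraries, against 544, 564 and 522 FPKM in PBS libraries, 1.95-fold lower in mean (log2 fold change -0.96 ± 0.07 SE, adjusted p = 8.3e-07). Eef1d, the delta subunit gene, fell to 179 ± 4.65 FPKM in nanoparticle libraries, against 223 ± 13.7 FPKM in PBS libraries (log2 fold change -0.32 ± 0.06 SE, adjusted p = 7.3e-04). Eef1b2, which encodes the exchange subunit that eEF1G anchors, rose, with 356, 360.5 and 351 FPKM in nanoparticle libraries, against 269, 279.7 and 288 FPKM in PBS libraries (log2 fold change 0.35 ± 0.05 SE, adjusted p = 1.4e-04). The ratio of Eef1b2 to Eef1g was accordingly 1.19, 1.27 and 1.38 in nanoparticle libraries and 0.495, 0.496 and 0.553 in PBS libraries, so the order of these 2 genes differed between the groups. Eef1e1, a scaffold of the tRNA synthetase complex, passed as higher (log2 fold change 0.15 ± 0.06 SE, adjusted p = 0.037), a call lost under both scalings, without the intensity trend and in 3 of the 6 fits without a library (log2 fold changes of 0.12 to 0.15 in those 3). Eef1a2 and Eif5a2, the tissue-restricted relatives of Eef1a1 and Eif5a, stayed at or below 0.200 FPKM and were not tested.

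Of the 5 tested genes of enzymes that modify elongation factors, 1 rose, 3 fell and 1 did not pass. Eef2k encodes the kinase that inhibits eEF2. It had 0.574, 0.489 and 0.499 FPKM in nanoparticle libraries, against 1.87, 1.84 and 1.84 FPKM in PBS libraries, 3.56-fold lower in mean (log2 fold change -0.91 ± 0.08 SE, adjusted p = 3.7e-06), a change that the log2(FPKM + 1) scale understates at so low a level. Eef2k was the 1 tested member with a group mean under 1 FPKM; it passed the filter only through the PBS libraries, so its test is no support for a difference. Eef2kmt, the gene of a lysine methyltransferase of eEF2, had 5.52, 6.31 and 6.96 FPKM in nanoparticle libraries, against 16.4, 15.8 and 14.8 FPKM in PBS libraries, 2.50-fold lower (log2 fold change -1.20 ± 0.09 SE, adjusted p = 7.6e-07), though 472 of its exon bases are shared with Alg1 on the opposite strand, which had a log2 fold change of 0.16. Of the genes that methylate eEF1A, Eef1akmt4 passed as higher (log2 fold change 0.45 ± 0.08 SE, adjusted p = 6.4e-04) and shares 143 exon bases with Alg3 on the opposite strand (log2 fold change -0.91). Eef1akmt1 passed as lower (log2 fold change -0.15 ± 0.05 SE, adjusted p = 0.031), a call lost in 4 of the 6 fits without a library (-0.16 to -0.12 in those 4), and Eef1akmt2 did not pass (log2 fold change 0.06 ± 0.07 SE, adjusted p = 0.43), with a sign that turned under both scalings. Eif6, whose product holds the ribosomal subunits apart and aids maturation of the large one, stood alone in its role and rose, with 211, 187 and 160.1 FPKM in nanoparticle libraries, against 133, 126 and 115 FPKM in PBS libraries (log2 fold change 0.57 ± 0.10 SE, adjusted p = 3.9e-04).

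Promoter windows of RefSeq (GRCm38.p6, 250 bases before to 50 after the start) were at hand for 58 members. The E-box CACGTG stood in 22.4% of them, in 12.2% of the 8250 tested genes with a window and in 8.09% of all 27025 genes with one. The 22.4% is over tested and untested members together. Of the 12 tested members that hold it, 2 rose, 8 fell and 2 did not pass, and of the 38 without it 15 rose, 15 fell and 8 did not pass. This difference was not tested. The 8 with an E-box that fell include Eef2k, which passed the filter only through the PBS libraries, so its call is no support for a difference. Of all genes tested, 42.7% were higher and 34.5% lower, and calls among all genes with an E-box were not counted. The stretches below belong to 3 genes called lower and, last, to 1 called higher, all with an E-box, in capitals. They are written 5′ to 3′ on the strand of the gene. They are chr16:20672643-20672756 (plus strand) for Eif4g1, chr11:69672577-69672642 (minus strand) for Eif4a1, chr7:120842770-120842835 (plus strand) for Eef2k and chr7:28981897-28981962 (minus strand) for Eif3k.
Eif4g1: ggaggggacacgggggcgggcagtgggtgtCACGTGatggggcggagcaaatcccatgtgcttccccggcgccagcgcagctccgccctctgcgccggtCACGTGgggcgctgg
Eif4a1: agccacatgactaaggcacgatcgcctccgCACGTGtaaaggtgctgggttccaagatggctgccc
Eef2k: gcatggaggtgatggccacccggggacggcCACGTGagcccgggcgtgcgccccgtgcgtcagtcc
Eif3k: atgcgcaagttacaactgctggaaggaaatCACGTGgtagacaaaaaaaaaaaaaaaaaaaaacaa
Eif4g1 holds 2 E-boxes, which begin at bases -54 and +16 from the start, and in Eef2k the E-box begins at -31, in Eif3k at -44 and in Eif4a1 at -189. The cyclic AMP response element TGACGTCA was found in 1 member, Eef2, against 3.93% of tested genes. The composite site TGATGNAAT, bound by ATF4 with C/EBP factors, was in no member's window and in 0.497% of those of tested genes. All motifs were sought on both strands.

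A further 24 members averaged under 1 FPKM and were not tested. Besides Eef1a2, Eif5a2 and Eif4e1b they were Eef1akmt3 (0.446 to 0.630 FPKM in nanoparticle libraries, 0.442 to 0.543 in PBS libraries), Eif4ebp3 (0.0963 to 0.426 FPKM in nanoparticle libraries, 0.0591 to 0.215 in PBS libraries), Eef1ece2 (0.211 to 0.356 FPKM in nanoparticle libraries, 0 in PBS libraries), the Eif4a3-like copies Eif4a3l1 and Eif4a3l2, and 16 Eif1a-like genes on chromosome 12. Eif4a3l1 had 0.104, 0.177 and 0.184 FPKM in nanoparticle libraries and 0, 0.0411 and 0 in PBS libraries. Eif4a3l2 had 0.124, 0.346 and 0.244 FPKM in nanoparticle libraries, against 0.0336, 0.0753 and 0.184 FPKM in PBS libraries, with overlapping groups. Their coding sequences are 96.2% and 96.8% identical to that of Eif4a3, so the split of reads among these genes is uncertain. For Eef1ece2, 495 exon bases are shared with Eef1akmt4 on the same strand. Eif4ebp3 shares 501 exon bases on the same strand with Maskbp3, itself higher (log2 fold change 0.57, limma adjusted p = 8.7e-05).

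The 16 Eif1a-like genes, Eif1ad2 to Eif1ad4, Eif1ad6 to Eif1ad8 and Eif1ad10 to Eif1ad19, lie between positions 87494721 and 88324026 of chromosome 12 (GRCm38). Genes of this cluster are known from the mouse embryo at the stage when the embryonic genome is first transcribed. Every copy was listed at 0 in all 3 PBS libraries, and 13 of the 16 were above 0 in all 3 nanoparticle libraries, which is 81.2% of them. The copies are nearly identical, as given below, and may share reads, so these counts are not of 16 separate observations. By the step of the low values, as an inference, 4, 2 and 2 of the copies above 0 in nanoparticle replicates 1, 2 and 3 rest on under 1 fragment, and 7, 8 and 8 on 3 or more. Of the 8358 genes listed at 0 in every PBS library, 13.4% were above 0 in every nanoparticle library and 51.0% in at least 1, where all 16 copies were. Nanoparticle libraries also listed more genes in general, as given above, and the part of this in the copies' values was not tested. In the opposite direction, 0.188% of the 4265 genes at 0 in every nanoparticle library were above 0 in every PBS library.

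The levels were low. Summed over the 16 copies they came to 3.31, 4.41 and 4.99 FPKM in the nanoparticle libraries and 0 in the PBS libraries, and the step of the low values implies, as an inference, 76.0, 95.5 and 114.3 fragments behind the nanoparticle sums. Eif1ad8 had 0.491, 0.502 and 0.651 FPKM, Eif1ad7 had 0.374, 0.471 and 0.688 FPKM, and Eif1ad15 had 0.241, 0.694 and 0.530 FPKM in nanoparticle libraries. Of the copies that were not above 0 in all 3, Eif1ad16 was above 0 in nanoparticle replicate 2 alone (0.175 FPKM), and Eif1ad14 and Eif1ad18 in replicates 1 and 3. A fold against libraries all at 0 is not given.

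These copies can hardly be told apart by their reads. Their coding sequences, 432 bases each, are at least 95.6% identical to one another, with a median of 97.2%, and 83.6% to 85.2% identical to that of Eif1ax, which is equally long. The first 60 coding bases, from the GENCODE M21 transcripts on GRCm38, show how they differ from the X-linked gene; capitals mark the bases of the copy that are not those of Eif1ax.
Eif1ax: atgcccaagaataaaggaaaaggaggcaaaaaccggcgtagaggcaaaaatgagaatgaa
Eif1ad8: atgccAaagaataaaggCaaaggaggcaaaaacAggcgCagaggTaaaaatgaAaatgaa
In this stretch Eif1ad8 differs from Eif1ax at 6 bases, and Eif1ad2 and Eif1ad13 carry the very letters of Eif1ad8. Values of single copies are therefore uncertain, and since FPKM divides by the length of each gene, their sum too can move with the split. How much of it came from reads of Eif1a or Eif1ax was not tested; Eif1ax had 26.7, 27.6 and 28.2 FPKM in nanoparticle libraries, against 25.6, 25.9 and 25.5 FPKM in PBS libraries.

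**Figure D5:**
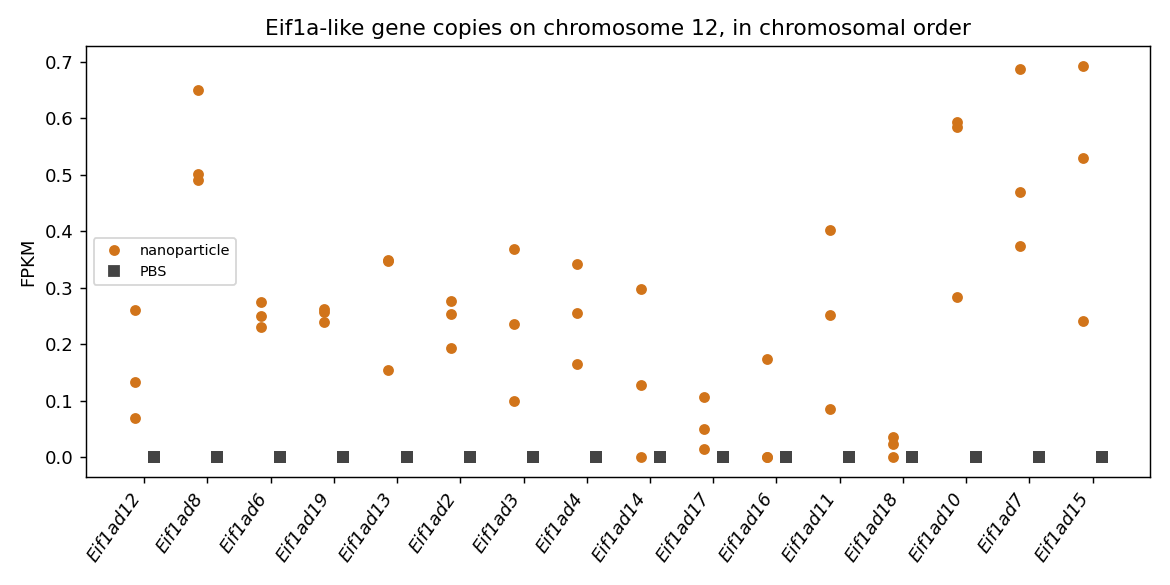
FPKM (vertical axis) of the 16 Eif1a-like genes of chromosome 12 in each library, in chromosomal order, for nanoparticle libraries (circles) and PBS libraries (squares, all at 0; 3 per gene). The highest nanoparticle value is 0.694, for Eif1ad15 in replicate 2.

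Other genes of translation were taken from 6 lists of 81 genes in all, of which 79 were tested; Gspt2 and Deptor were below 1 FPKM. Of these, 33 rose, 26 fell and 20 did not pass, with a median log2 fold change of 0.02, against 0.08 over all genes tested. These are 41.8% higher and 32.9% lower, near the 42.7% and 34.5% of all genes tested. Upper quartile and median-ratio scaling each gave 28 higher and 35 lower, with 5 higher and 3 lower in the integrated stress response list and 2 and 5 in that of termination, recycling and rescue. Around eIF2, 7 of 10 genes of the integrated stress response rose and 2 fell, with a median of 0.84. Ddit3, which encodes the transcription factor CHOP, rose to 288 ± 5.67 FPKM in nanoparticle libraries, against 5.36 ± 0.597 FPKM in PBS libraries (log2 fold change 5.51 ± 0.07 SE, adjusted p = 2.5e-11); it shares 68 exon bases with Mars1 on the opposite strand, at a log2 fold change of -0.63. Ppp1r15a, the gene of GADD34, which directs a phosphatase to eIF2, had 102, 104 and 95.9 FPKM in nanoparticle libraries, against 9.51, 8.39 and 9.29 FPKM in PBS libraries (log2 fold change 3.34 ± 0.06 SE, adjusted p = 1.6e-10), and Prkra, whose product activates PKR, fell (log2 fold change -0.29 ± 0.07 SE, adjusted p = 0.0054). All of these groups were apart, as they were in 78.8% of all genes tested.

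In the list of mTORC1 and MNK control, 8 of 14 genes rose and 2 fell (57.1% and 14.3%, against 42.7% and 34.5% of all genes tested). Akt1s1, which encodes the mTORC1 inhibitor PRAS40, had 70.98, 62.7 and 59.7 FPKM in nanoparticle libraries, against 27.3, 28.5 and 24.7 FPKM in PBS libraries (log2 fold change 1.23 ± 0.08 SE, adjusted p = 3.4e-07), and Mknk1, the gene of a kinase of eIF4E, rose to 27.5 ± 1.77 FPKM in nanoparticle libraries, against 13.2 ± 0.837 FPKM in PBS libraries (log2 fold change 1.00 ± 0.07 SE, adjusted p = 8.0e-07). Rptor, the gene of the mTORC1 subunit raptor that binds its substrates, fell, at 7.29, 7.09 and 7.25 FPKM in nanoparticle libraries, against 14.4, 13.1 and 13.1 FPKM in PBS libraries (log2 fold change -0.82 ± 0.07 SE, adjusted p = 2.2e-06). Regulators of poly(A)-binding protein and the cap complex gave 6 higher and 7 lower of 17. Among them Paip2, a repressor of poly(A)-binding protein, rose to 118 ± 5.17 FPKM in nanoparticle libraries, against 38.1 ± 0.951 FPKM in PBS libraries (log2 fold change 1.60 ± 0.05 SE, adjusted p = 5.0e-09), and Pabpc4, a gene of that protein family, fell to 36.9 ± 0.754 FPKM in nanoparticle libraries, against 84.7 ± 4.31 FPKM in PBS libraries (log2 fold change -1.17 ± 0.06 SE, adjusted p = 4.8e-08). Pdcd4, which encodes an inhibitor of eIF4A and was chosen after its values were seen, had 6.75, 7.797 and 8.01 FPKM in nanoparticle libraries, against 1.33, 1.91 and 2.15 FPKM in PBS libraries (log2 fold change 1.62 ± 0.12 SE, adjusted p = 9.2e-07).

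Termination, recycling and ribosome rescue gave 3 higher and 1 lower of 12. Zfp598, the gene of the ligase that marks collided ribosomes, rose to 40.5 ± 1.89 FPKM in nanoparticle libraries, against 20.5 ± 1.67 FPKM in PBS libraries (log2 fold change 0.95 ± 0.07 SE, adjusted p = 9.9e-07), and Gspt1, the gene of release factor eRF3, fell (log2 fold change -0.42 ± 0.06 SE, adjusted p = 1.5e-04). Helpers and modifiers of elongation gave 6 higher and 6 lower of 14, among them Gtpbp2, whose product aids stalled ribosomes, with 46.1, 43.7 and 46.96 FPKM in nanoparticle libraries, against 11.6, 10.6 and 10.5 FPKM in PBS libraries (log2 fold change 1.96 ± 0.06 SE, adjusted p = 3.5e-09), and Eefsec, the elongation factor gene for selenocysteine, which fell (log2 fold change -1.05 ± 0.06 SE, adjusted p = 2.5e-07). Mitochondrial translation factors gave 3 higher and 8 lower of 12 (25.0% and 66.7%, against 42.7% and 34.5% of all genes tested). The elongation factor gene Tsfm had 15.7, 12.6 and 12.7 FPKM in nanoparticle libraries, against 47.9, 51.2 and 44.8 FPKM in PBS libraries (log2 fold change -1.74 ± 0.09 SE, adjusted p = 7.5e-08), Guf1 fell as well (log2 fold change -1.34 ± 0.08 SE, adjusted p = 2.6e-07), and the initiation factor gene Mtif2 rose (log2 fold change 0.81 ± 0.08 SE, adjusted p = 6.3e-06).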

How the data were processed

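mRNA-enriched libraries were made with a BGI protocol, per the labels' protocols. The deposited table gives each library's FPKM, a unit the authors made by correcting for gene length and library size; the header names none, and FPKM was inferred from the values. STAR, featureCounts, GRCm38 and mm10 stand in the submitters' processing notes without versions. Columns were matched to libraries by library name, and that of PBS replicate 1 carries an unexplained suffix. Rows without an Ensembl identifier (509, holding 0.427% to 0.497% of the FPKM) were left out of the tests.

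The 10229 genes that averaged 1 FPKM or more over the 6 libraries were tested on log2(FPKM + 1) in R 4.3.3 with limma 3.58.1. The model held treatment alone and an intensity trend, and two-sided p-values were Benjamini-Hochberg adjusted. Whole reads could not be recovered, so no count test was run in place of the one planned for counts. An exact permutation test of 3 against 3 libraries cannot go below p = 0.1 and was not used. The procedure was tested on simulated data in which only a small part of the genes changed. Of the genes tested here 77.2% passed, so the simulation does not cover this setting. Other tools were Python 3.11.15, pandas 2.3.3, Biopython 1.88 and matplotlib 3.10.9. Means are given with the SD over 3 libraries.

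Replicate numbers come from the labels. The deviations of same-numbered libraries correlated at 0.13, 0.11 and 0.35, and those of libraries with different numbers at -0.26 to 0.13. Nanoparticle replicate 1 correlated at 0.13 with PBS replicate 1 and with PBS replicate 2. With 3 libraries in each group such values cannot settle whether the numbers pair the libraries, and the main fit left the numbers out. The fit with the number as a block is given where it changed the call of a member named. Genes named were a fixed set of kinases and core subunits, the 2 members of each role with the largest change each way, and in each list of other genes the 2 with the smallest p and the most significant against its majority. The members, roles and lists were chosen with earlier results of these data known. Fold changes of low genes are understated by the added 1.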

Additional observations from a re-analysis of the deposited data

How the results depend on the processing

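Of the 53 called members, 44 (16 higher, 28 lower) kept call and direction in each of the 15 alternatives that tested them. Another 9 lost the call in at least 1, and none changed sign. The 44 include Eef2k, which was not tested with a minimum of 5 FPKM and passed the main filter only through the PBS libraries. Counts of members were 21 higher and 32 lower with pseudocounts of 0.1 and 10 and after rescaling every library to one sum. They were 21 and 31 with a minimum of 5 FPKM, and 20 and 31 without the intensity trend. Over all genes these fits gave 42.5% to 42.8% higher and 32.7% to 36.1% lower. Without a filter on low values 34 were higher and 31 lower of 86, where 34.7% and 19.8% of all genes were; 12 of the 14 members added as higher were Eif1a-like copies, all at 0 in PBS libraries. Upper quartile scaling gave 16 higher and 35 lower (37.2% and 39.9% of all genes) and median-ratio scaling 16 and 36 (36.0% and 41.1%); median-ratio scaling moved the median of all genes by -0.11 and that of the members to -0.27. Leaving out a library gave 19 to 21 higher and 28 to 32 lower, where 40.3% to 42.0% and 31.7% to 35.4% of all genes were. The replicate block gave 21 higher and 34 lower, where 45.1% and 36.6% of all genes were, against 42.7% and 34.5% in the main fit. It added Eif2ak4 (limma adjusted p = 0.048) and Eef1a1 (0.029) and changed no other member's call. In the lists of other genes it gave 36 higher and 31 lower, adding Mrrf, Rps6ka1 and Vcpkmt as higher and Angel1, Ddx3x, Dph5, Gcn1 and Mcts1 as lower, and losing none. Of members that did not pass, signs turned for Eef1akmt2 (upper quartile -0.04, median-ratio -0.06), Eif1ax (-0.00 and -0.03), Eif3d (-0.08 and -0.11; -0.02 to 0.05 over the fits without a library, lowest without nanoparticle replicate 1), Eif4a2 (-0.01 and -0.03), Eif4e2 (-0.10 and -0.12; -0.07 to 0.06 over the fits without a library, below 0 at -0.03, -0.02 and -0.07 without nanoparticle replicate 1, nanoparticle replicate 2 and PBS replicate 3) and Eif1b (-0.09 to 0.02, above 0 without nanoparticle replicate 3). Eif2s1 passed as lower under median-ratio scaling (-0.17). The cause of these shifts was not tested. No fragment counts were recovered, so levels under 1 FPKM carry no counting interval.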

Other observations

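Other genes known from the early mouse embryo, chosen after their values were seen, were also listed above 0 in the nanoparticle libraries. Of all 8358 genes listed at 0 in every PBS library, 13.4% were above 0 in every nanoparticle library and 51.0% in at least 1. The values below are low and may rest on few fragments. Whether these genes and the Eif1a-like copies have anything in common here was not tested. Tcstv1 had 1.15, 1.17 and 1.43 FPKM in nanoparticle libraries, against 0, 0.035 and 0 FPKM in PBS libraries. Tcstv3 had 0.773, 0.690 and 0.696 FPKM in nanoparticle libraries, against 0, 0 and 0.0651 FPKM in PBS libraries. Zscan4f, of the telomere-linked Zscan4 family, had 0.301, 0.189 and 0.220 FPKM in nanoparticle libraries and was listed at 0 in all PBS libraries, as were Zscan4d (0.247, 0.114 and 0.131 FPKM in nanoparticle libraries), Usp17la (0.292, 0.388 and 0.120 FPKM) and Zfp352 (0.150, 0.123 and 0.0579 FPKM). Duxf3, which encodes the transcription factor Dux, had 0.0204, 0.0075 and 0.0299 FPKM in nanoparticle libraries and 0, 0 and 0.0278 FPKM in PBS libraries, so its groups overlapped. These genes belong to families of similar copies, and reads may be shared among them.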
